A study of Rattus norvegicus with 7 samples.

Results

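Small proline-rich (Sprr) and late cornified envelope (Lce) genes were examined in RNA sequencing of rat meibomian gland, the lipid-secreting gland of the eyelid. Members were chosen by their raw counts, as all deposited genes whose symbol begins with Sprr or Lce and whose mean count over the 7 libraries was at least 10. The rule gave 7 of 17246 genes, 3 with a Sprr symbol (Sprr1a, Sprr1b, Sprr3) and 4 with a Lce symbol (Lce1f, Lce1l, Lce1m, Lce6a). Of the 8 rows with such a symbol, 1 fell below the mean count. The mean count does not use the comparison between groups, but Sprr1b and Lce1m were already known from these data to be among the large changes, so their differences are given as descriptions.

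The series compared 4 untreated control samples with 3 samples from rats whose shaved upper eyelids received ultraviolet B light (UVB) at 300 mJ/cm2, in 5 min sessions on 5 days. All rats were wild-type female Sprague-Dawley animals aged 3 months, and the glands were dissected from the removed lids. The labels attach the same irradiation text to controls, whose treatment field reads none, and do not say whether the controls were shaved. Libraries held 20680237 to 28784941 counts. Letters name them here (controls a to d, irradiated a to c) and pair nothing. Nothing states that each library came from a separate animal, so p-values measure the spread between these libraries. In bulk tissue, fewer cells of a type and less RNA per cell cannot be told apart. Markers of meibocytes, the lipid-filled cells of the gland, were all detected (13 of 13) and summed to 101259 to 126065 CPM (counts scaled to a common library size) in the controls and 98173 to 120334 CPM after UVB. The lipid desaturase gene Scd made up most of that sum. Of the 13, edgeR called 0 higher and 3 lower: Awat2 (log2 fold change -0.66), Plin2 (-0.45) and Awat1 (-0.33). Over all tested genes it called 6.3% higher and 6.74% lower. The dissected tissue also carried all 14 measured markers of cornifying epidermis (17 listed) and all 11 of hair follicle (12 listed). The other listed symbols were not analysed here.

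Keratinocytes that cornify replace their plasma membrane with a cornified envelope, a shell of proteins joined by transglutaminases. Small proline-rich proteins act as cross-bridges in this shell and are known to be induced in stressed or wounded epithelium, while most late cornified envelope proteins are deposited late, in the outermost living layers of epidermis. Both families lie in the epidermal differentiation complex, a chromosomal cluster that also holds loricrin, involucrin and S100 genes. In the meibomian gland, cornification is known from the duct and its opening, and excess cornification of the duct is a recognised feature of gland disease.

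The stretches upstream of 4 members are shown because these genes were the most and the least abundant Sprr transcript in controls (Sprr1a, Sprr1b) and the Lce transcripts with the steadiest and the largest fall (Lce1l, Lce1m). They are the 250 bases before the annotated start, from RefSeq on build GRCr8, written 5′ to 3′ on the gene's strand. All 4 lie on the minus strand, at chr2:180752626-180752875, chr2:180706356-180706605, chr2:181159043-181159292 and chr2:181334301-181334550 in the order given. The deposited data were made on build rn7, per the submitters' processing notes. Lce1l was matched by gene identifier to a gene that RefSeq calls Lce1e. Capitals mark the AP-1 letters TGANTCA and the TATA letters TATAAA, searched on both strands.
Sprr1a: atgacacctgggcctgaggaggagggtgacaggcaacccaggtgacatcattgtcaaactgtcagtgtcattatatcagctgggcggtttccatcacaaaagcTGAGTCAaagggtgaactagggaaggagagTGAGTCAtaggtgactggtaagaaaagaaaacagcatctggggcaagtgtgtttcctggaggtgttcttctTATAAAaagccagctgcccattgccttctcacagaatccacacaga
Sprr1b: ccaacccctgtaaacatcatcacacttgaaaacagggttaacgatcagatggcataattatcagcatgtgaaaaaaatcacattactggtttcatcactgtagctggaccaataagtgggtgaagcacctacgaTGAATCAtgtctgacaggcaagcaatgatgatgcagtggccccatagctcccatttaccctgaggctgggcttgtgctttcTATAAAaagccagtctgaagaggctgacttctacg
Lce1l: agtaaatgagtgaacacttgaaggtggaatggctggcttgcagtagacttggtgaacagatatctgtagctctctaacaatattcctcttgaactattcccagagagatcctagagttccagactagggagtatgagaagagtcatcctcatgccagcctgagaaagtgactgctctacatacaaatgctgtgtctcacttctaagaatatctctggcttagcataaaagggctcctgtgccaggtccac
Lce1m: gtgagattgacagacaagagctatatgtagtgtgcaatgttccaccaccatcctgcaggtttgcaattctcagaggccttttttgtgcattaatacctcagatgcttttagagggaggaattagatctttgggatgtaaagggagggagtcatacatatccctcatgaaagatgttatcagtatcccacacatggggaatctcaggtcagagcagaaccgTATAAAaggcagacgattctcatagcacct

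AP-1 is the dimeric Fos and Jun transcription factor. Its letters stood 147 and 117 bases before the start of Sprr1a, and 116 bases before that of Sprr1b, and they were in none of the Lce windows. No window was available for Sprr3, so 2 of the 6 members searched held them. Of all 33469 windows of the same length (these 250 bases and the 50 after the start), 7.33% held them. TATA letters began 46 bases before the start of Sprr1a, 35 before that of Sprr1b and 30 before that of Lce1m. They were in 3 of 6 members and in 14.2% of all windows. For the 6 members with a sequence, the other motifs searched were TTNNGNAA (C/EBP, 3 of 6 members, 41.3% of all windows), CACCC (KLF, 5 of 6, 54.9%), AGGAAG (ETS, 1 of 6, 34.5%) and AACNNGTT (GRHL, 0 of 6, 4.23%). The C/EBP letters can overlap other motifs. These matches describe letters in the windows and were not tested as binding sites.

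The first comparison asked how the 7 genes differ between UVB and control glands. All 3 Sprr genes were higher after UVB and 2 of the 4 Lce genes, Lce1l and Lce1m, were lower (edgeR quasi-likelihood test, adjusted p under 0.05 over all genes). Among the 13709 genes tested, 6.3% were called higher and 6.74% lower. Every UVB library lay above every control for 3 members and below for 3 (Lce1l, Lce1m, Lce6a), where 12.8% and 13.8% of all tested genes did so, and the groups overlapped for Lce1f. Groups were thus separate for 6 of 7 members and for 26.6% of all tested genes. The median log2 fold change was 1.51 over the Sprr members and -1.01 over the Lce members, beside -0.0058 over all tested genes. These counts and medians include Sprr1b and Lce1m, whose large changes were already known from these data. Apart from them, Sprr1a and Sprr3 were called higher, Lce1l was called lower, and Lce1f and Lce6a were not called.

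**Figure D1:**
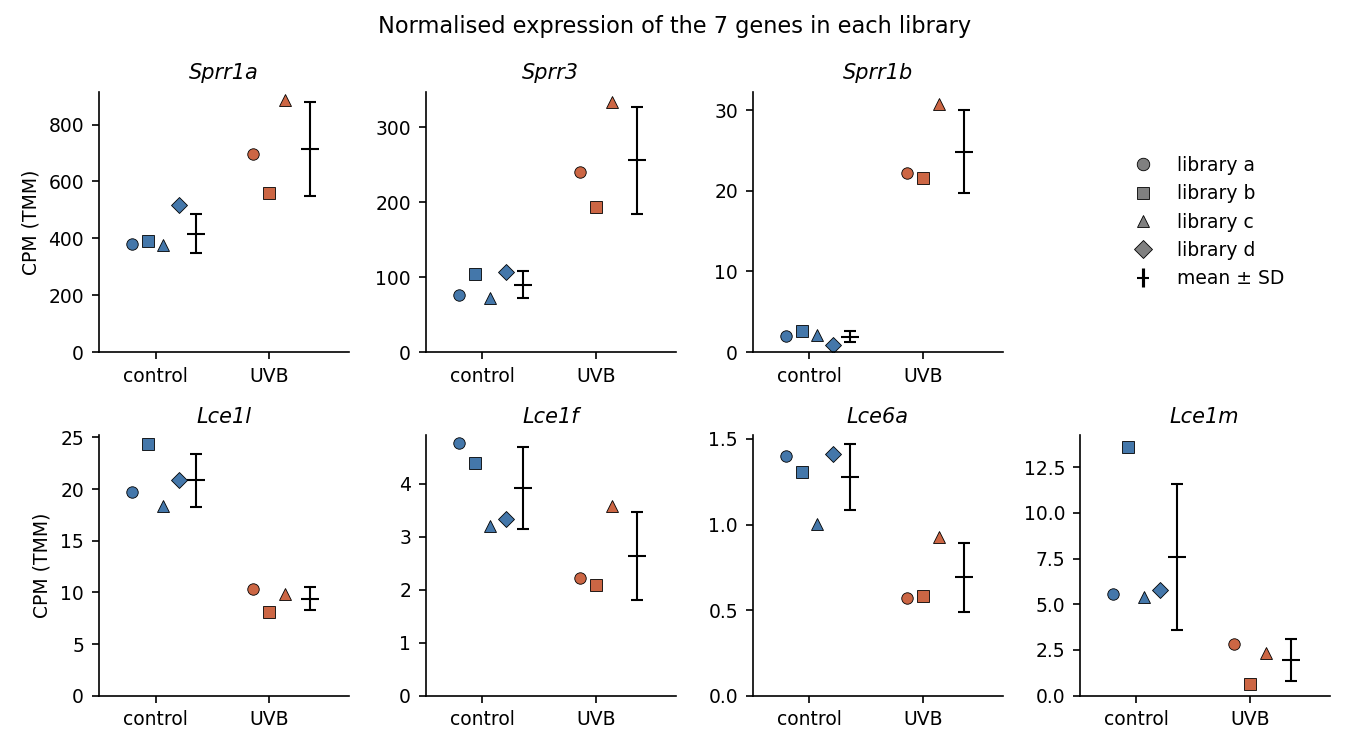
Normalised expression (CPM with TMM factors, linear axes from 0) of the 7 genes in the 4 control and 3 UVB libraries. Each symbol is a library, named by its letter, and bars give mean ± SD. The 3 Sprr genes of the upper row sit higher in all 3 UVB libraries, and 3 of the 4 Lce genes of the lower row sit lower in all 3, with overlap for Lce1f.

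Sprr1a (NCBI gene 499660), the founding type of these envelope cross-bridges, measured 382, 391, 376 and 519 CPM in controls a to d and 695, 559 and 888 CPM in UVB a to c. Control d was the highest control and UVB b the lowest irradiated library, and the groups did not overlap. Mean CPM was 417 ± 68.2 (SD, n = 4) without and 714 ± 165 (SD, n = 3) with UVB, or 0.78 on the log2 scale (SE 0.17, adjusted p = 0.0229 by edgeR). The size held in each fit that left out a library (0.59 to 0.93), but the call was lost without control a (adjusted p = 0.0533), control b (0.0590), control c (0.0630) or UVB a (0.0567).

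Sprr3 (NCBI gene 310575), a proline-rich envelope protein known best from mucosal squamous epithelium such as the esophagus, measured 77.0, 105, 72.7 and 107 CPM in the controls and 240.4, 194 and 334 CPM in UVB a to c. Even the lowest irradiated library exceeded every control. On the log2 scale the difference was 1.51 (SE 0.21, adjusted p = 0.00688 by edgeR), and it stayed called in all 16 alternative fits. An lncRNA, LOC108350274, overlaps Sprr3 in GRCr8, and without stated strand handling reads of the pair cannot be told apart.

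Sprr1b (NCBI gene 685912), the close relative of Sprr1a, was low in control glands. It measured 1.96, 2.57, 2.14 and 0.940 CPM in controls a to d, from 22 to 62 counts, and 22.2, 21.6 and 30.7 CPM in UVB a to c, from 468 to 798 counts. Control d was the lowest control for Sprr1b, although it was the highest for Sprr1a and Sprr3. The means were 1.90 ± 0.690 CPM (SD, n = 4) and 24.9 ± 5.11 CPM (SD, n = 3), a 13.1-fold difference. The fitted log2 value was 3.71 (SE 0.27, adjusted p = 0.000769 by edgeR), between 3.49 and 3.87 over every alternative fit, and it was called in all 16. Counts of the 3 Sprr members were whole in every library.

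Lce1l (NCBI gene 686125) was the most abundant Lce transcript. It measured 19.7, 24.4, 18.4 and 20.9 CPM in the controls and 10.3, 8.09 and 9.82 CPM in UVB a to c. Libraries of a group were close together, with a coefficient of variation (CV) of 12.3% in either group, and the groups were far apart. UVB minus control was -1.15 on the log2 scale (SE 0.13, adjusted p = 0.0023 by edgeR), and all 16 alternative fits called it. Its counts, like those of Lce1f, were not whole in any of the 7 libraries, so their values rest in part on fractions of reads assigned by the authors' counting and are uncertain to that extent.

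Lce1m (NCBI gene 688413) measured 5.55, 13.6, 5.42 and 5.77 CPM in controls a to d and 2.84, 0.658 and 2.31 CPM in UVB a to c. Control b stood apart above the other controls and UVB b below the other irradiated libraries. UVB minus control was -1.98 on the log2 scale (SE 0.53, adjusted p = 0.0469 by edgeR). That call was the least secure of the 5: it was lost in 12 of 16 alternatives, in every fit that left out 1 library among them, at adjusted p-values up to 0.0883 (-1.55, leaving out UVB b). Leaving out control b gave -1.54 (adjusted p = 0.0656). The order of the groups does not rest on either library, since the remaining controls (5.42 to 5.77 CPM) all exceeded the highest UVB value.

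The remaining Lce members were scarcer and did not pass. Lce6a (NCBI gene 100361652) measured 1.40, 1.31, 1.00 and 1.41 CPM in the controls and 0.569, 0.581 and 0.925 CPM in UVB a to c (log2 fold change -0.87, SE 0.29, edgeR adjusted p = 0.0801). It rested on 28 to 33 counts per control and 12 to 24 per UVB library, and the counting error alone gives a CV of 18.3% and 24.3%, close to the 15.0% and 29.2% observed. It passed in the 3 fits to TPM values (adjusted p = 0.0334 to 0.0443). Lce1f (NCBI gene 499663) measured 4.76, 4.39, 3.21 and 3.33 CPM in the controls and 2.23, 2.09 and 3.58 CPM in UVB a to c (-0.56, SE 0.25, edgeR adjusted p = 0.163). UVB c lay above 2 of the controls. Without UVB c its log2 fold change was -0.86 (adjusted p = 0.0635).

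At the threshold, the member with the lowest mean count was Lce6a (24.4), and Sprr2d (NCBI gene 102550699) fell just below with 9.22. Sprr2d had 7, 1, 2 and 2 counts in the controls and 5, 26.8 and 20.7 in UVB a to c. A neighbouring row, LOC108350059, is called Sprr2a2 by RefSeq and is no member by its deposited symbol. It had 10, 1, 1 and 6 counts in the controls and 1, 71 and 11 in the UVB libraries, so a single irradiated library carried most of it (log2 fold change 2.48, SE 1.15, edgeR adjusted p = 0.198).

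Levels between genes were compared in TPM, which scale for transcript length as well as depth. In the controls the order was Sprr1a (973 ± 153 TPM; SD, n = 4), Sprr3 (149 ± 28.7), Lce1l (63.7 ± 7.81), Lce1f (25.5 ± 4.90), Lce6a (25.4 ± 3.69), Lce1m (18.2 ± 9.63) and Sprr1b (11.3 ± 4.21). The ranges of Lce1f, Lce6a and Lce1m overlapped, as did those of Lce1m and Sprr1b. After UVB the order was Sprr1a (1681 ± 411 TPM; SD, n = 3), Sprr3 (426 ± 122), Sprr1b (148 ± 33.3), Lce1l (28.9 ± 4.17), Lce1f (17.3 ± 5.73), Lce6a (13.8 ± 4.66) and Lce1m (4.70 ± 2.81), with overlap only between Lce1f and Lce6a among neighbours. Sprr1b thus went from the bottom of the order to the place after Sprr3.

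Within families, the makeup of the Sprr total also differed. Sprr1b made up 1.04% ± 0.444 of the summed Sprr TPM in controls (SD, n = 4) and 6.63% ± 0.571 after UVB (SD, n = 3), Sprr3 13.1% ± 1.71 and 18.8% ± 0.677, and Sprr1a 85.8% ± 1.93 and 74.6% ± 0.794. None of these 3 shares overlapped between groups, but they add up to the whole in each library and so are not separate results. Mean Sprr1a itself was 973 TPM in controls and 1681 TPM after UVB, although its share was lower. Among the Lce genes, the share of Lce1l was 48.2% ± 2.95 (SD, n = 4) and 45.4% ± 6.0 (SD, n = 3), with overlap.

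Family totals moved apart. The Sprr members summed to 1018, 1103, 1031 and 1382 TPM in controls a to d and 2199, 1721 and 2846 TPM in UVB a to c. The Lce members summed to 130.1, 163, 112 and 126 TPM and to 65.4, 49.9 and 79.1 TPM. The ratio of the Sprr to the Lce total was 7.83, 6.75, 9.25 and 10.97 in the controls and 33.6, 34.5 and 36.0 after UVB. UVB c was the highest irradiated library for both totals, and in the ratio the 3 irradiated libraries lay closer together than in either total.

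**Figure D2:**
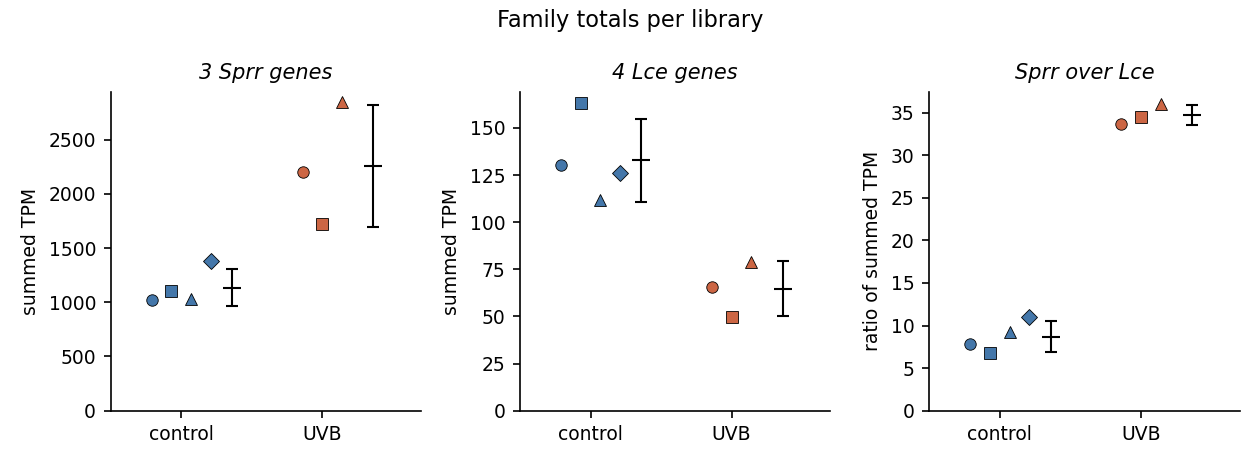
Summed TPM of the 3 Sprr and the 4 Lce members and their ratio in each library (symbols as letters a to d, bars mean ± SD, linear axes from 0). The ratio lies between 6.75 and 10.97 in the controls and between 33.6 and 36.0 in the UVB libraries.

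Levels were also set against Krt1 and Krt10, the keratins of spinous epidermal cells, a denominator chosen after the values were seen. Summed CPM of the pair was 3547 ± 412 without UVB (SD, n = 4) and 4274 ± 930 with it (SD, n = 3), and was highest in UVB c (5318 CPM). As a percentage of that sum, Sprr1b was 0.0586%, 0.0648%, 0.0696% and 0.0246% in the controls and 0.559%, 0.612% and 0.578% in UVB a to c. Its CV over the UVB libraries was 4.58% on this scale and 20.5% in CPM, that of Sprr1a 5.2% and 23.2%, and that of Sprr3 6.92% and 27.9%. Among the Lce genes, the UVB CV was 9.55% against 31.3% in CPM for Lce1f and 9.71% against 29.2% for Lce6a, while it was 16.7% against 12.3% for Lce1l and 59.6% against 58.8% for Lce1m. Over the controls the CV of Lce1l was 4.98% on this scale and 12.3% in CPM, and that of Sprr1b 37.4% and 36.3%.

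On the keratin scale the groups did not overlap for any of the 7 members, with Sprr above in 3 of 3 and Lce below in 4 of 4. Of all tested genes, 2.04% lay above and 18.6% below in this way, and the members again include Sprr1b and Lce1m, known beforehand. Lce1f, which overlapped in CPM, was 0.0874% to 0.142% of the keratin sum in controls and 0.0562% to 0.0674% after UVB. The mean log2 difference was 0.51 for Sprr1a, 1.24 for Sprr3, 3.53 for Sprr1b, -1.40 for Lce1l, -0.85 for Lce1f, -1.17 for Lce6a and -2.35 for Lce1m.

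**Figure D3:**
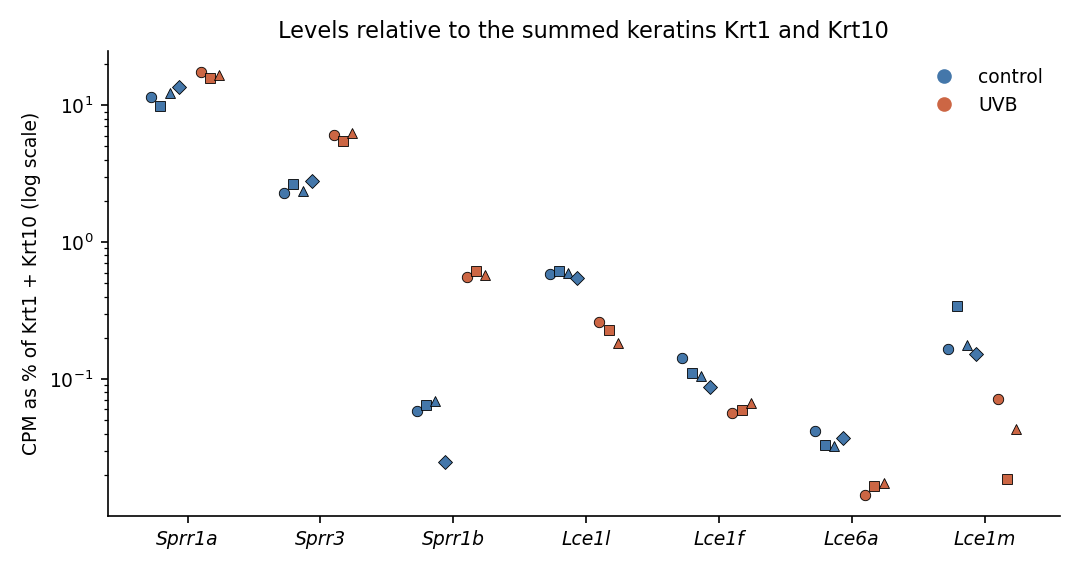
CPM of each member as a percentage of the summed CPM of Krt1 and Krt10 (log axis) in control (blue) and UVB (orange) libraries, with symbols by library letter as in the plot of CPM by library. Control and UVB points are separate for all 7 genes, above for Sprr and below for Lce.

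Marker levels beside these results were as follows, and over all tested genes edgeR called 6.3% higher and 6.74% lower. Cornifying epidermis markers summed to 6700 to 7851 CPM in controls and 6354 to 8754 CPM after UVB, highest in UVB c, with 0 of 14 called higher and 5 lower by edgeR (Krt2, Krt77, Krt80, Sbsn and Calml3). Hair follicle markers summed to 1010 to 1316 CPM in controls and to 441, 380 and 1034 CPM in UVB a to c, with 2 of 11 called lower. Duct or wound keratinocyte markers summed to 3338 to 3838 CPM and 3451 to 4094 CPM, with 2 of 8 called higher (Epgn and Gjb2) and 1 lower (Krt75). Conjunctival or mucosal markers summed to 3715 to 5004 CPM and 4583 to 5791 CPM, with 0 of 8 called. Macrophage markers summed to 77.8 to 138 CPM and 119.6 to 219 CPM, with 4 of 8 called higher (Cd163, Mrc1, C1qb and C1qc). The rest were not called: C1qa (log2 fold change 0.85), Adgre1 (0.11), Csf1r (-0.0093) and Cd68 (-0.41). T cell markers summed to 32.8 to 36.7 CPM and 51.1 to 64.7 CPM without overlap, with 2 of 4 called higher (Thy1 and Cd8a). Thy1 made up most of that sum, with a mean of 32.4 CPM in controls and 53.9 CPM after UVB. The sum is thus mainly a value of Thy1 and does not measure T cells. Cd8a rested on a mean count of 17.4, with a mean of 0.238 CPM in controls and 1.37 CPM after UVB. Cd3e (log2 fold change -0.55) and Cd3g (-0.27) lay below 0 and were not called. Basal keratinocyte markers summed to 9611 to 12086 CPM and 12102 to 12920 CPM, with the highest control just below the lowest UVB library. Of these, 2 of 5 were called higher, Krt14 (log2 fold change 0.47) and Itgb4 (0.41). Krt5 (-0.021), Col17a1 (-0.18) and Dst (-0.30) lay below 0 and were not called. Fibroblast markers summed to 2418 to 3756 CPM and 2456 to 4094 CPM, with 3 of 5 called higher (Dcn, Lum and Pdgfra). Col1a1 (log2 fold change -0.48) and Col3a1 (0.019) were not called. Endothelial markers summed to 73.2 to 91.4 CPM and 107 to 126 CPM without overlap, with 2 of 4 called higher, and Schwann cell markers to 109 to 123 CPM and 74.2 to 86.6 CPM without overlap, with 1 of 4 called lower. Neutrophil or monocyte markers summed to 316 to 522 CPM and 373 to 427 CPM, with 2 of 6 called higher (Csf3r and S100a9). S100a8, S100a9 and Lyz2 made up most of that sum, and both S100 genes are also on the S100 list below. Lyz2 (log2 fold change -0.77) lay below 0 and was not called. Csf3r rested on a mean count of 24.0. Skeletal muscle markers had 0 of 5 called. None of these markers was at 0 in all libraries. The part of these cell types in the Sprr and Lce differences was not tested.

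Chromosomal order was compared next, since both families lie in a single stretch of chromosome 2 in GRCr8. From Pglyrp3 to S100a11 it holds 55 protein-coding genes, 20 of which were analysed here. Following the stretch, Sprr1b, Sprr3 and Sprr1a are consecutive and were all higher. Sprr4, which comes next, was not analysed here, nor were Smcp and Lce7a, which stand between involucrin (Ivl) and Lce6a. Of the 22 Sprr and Lce genes of the stretch by either symbol, 9 were analysed here, so the order describes only those. The 4 Lce members had log2 values below 0. Of the 11 other genes tested, 0 were called higher and 1 lower, beside 13% of all genes called in either direction by edgeR. That gene was LOC686143, which RefSeq calls Kplce and which sits between Lce1l and Lce1m, with 11.2 ± 2.61 CPM in controls (SD, n = 4) and 6.26 ± 0.860 CPM after UVB (SD, n = 3; log2 fold change -0.84, SE 0.19, edgeR adjusted p = 0.0238).

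Neighbours within the Lce stretch differed among themselves. Kprp, a keratinocyte proline-rich protein gene beside Lce1l, differed by -0.069 in log2 units (SE 0.20, adjusted p = 0.852 by edgeR), and Crct1, beside Lce1m, by 0.036 (SE 0.23, adjusted p = 0.936). Ivl, which encodes an early scaffold protein of the envelope, measured 12.4, 15.0, 12.6 and 16.03 CPM in controls and 6.45, 1.59 and 8.82 CPM in UVB a to c without overlap (-1.32, SE 0.46, adjusted p = 0.108). It passed in limma-voom (adjusted p = 0.0458), without UVB b (0.0245) and without UVB c (0.0492).

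**Figure D4:**
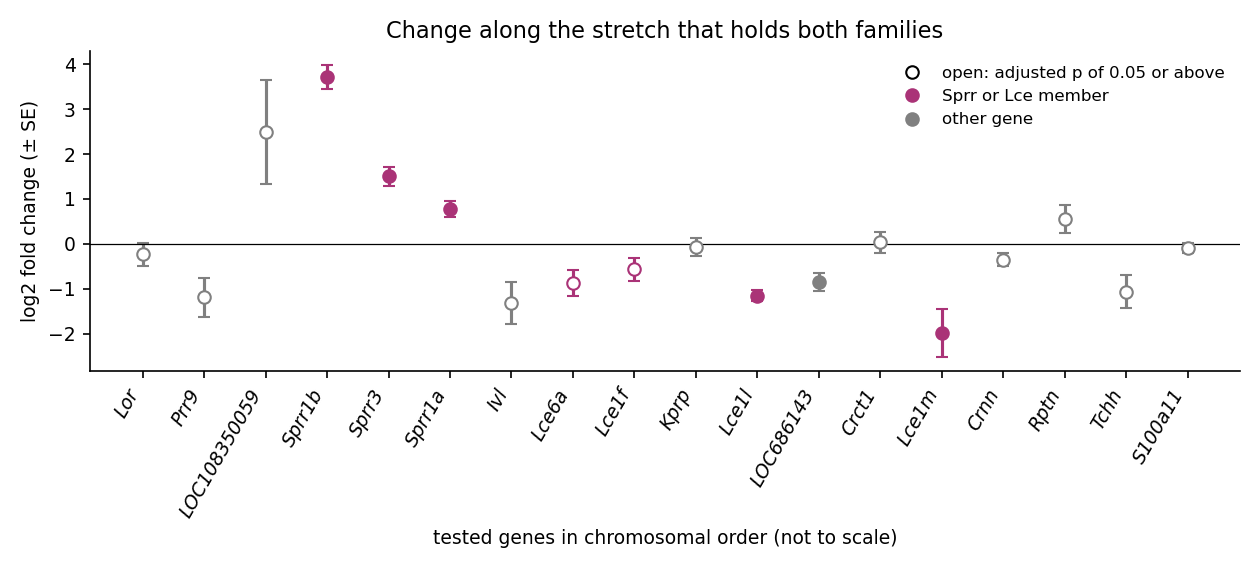
Log2 fold change of UVB over control (± SE, edgeR) for the 18 tested genes of the stretch in chromosomal order, equally spaced. Filled points passed the adjusted threshold; the 3 Sprr members form a run of filled points above 0, and the members Lce6a, Lce1f, Lce1l and Lce1m lie below 0, the first pair as open points.

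Other cornified envelope genes did not share a direction. For envelope proteins outside the families, 28 symbols were listed, of which Lor and Loricrin name the same gene, and 19 genes were tested. Among them edgeR called 2 higher and 3 lower (6.3% and 6.74% of all tested genes), with a median log2 fold change of -0.10. The risers were Cnfn, cornifelin of the envelope (1.37, SE 0.12, adjusted p = 0.0011), and Lypd3, a membrane protein of suprabasal cells (0.62, SE 0.091, adjusted p = 0.0052). The fallers were Sbsn, suprabasin (-0.53, SE 0.097), Cst6, a cystatin that restrains the proteases of cornification (-1.28, SE 0.24), and Evpl, envoplakin (-0.40, SE 0.10), which lost its call in 9 of 16 alternatives. Without UVB b, 4 were called higher. Lor, which encodes loricrin, the main protein of the epidermal envelope, stood at -0.23 in log2 units (SE 0.25, adjusted p = 0.583 by edgeR), and the sign changed without UVB b (0.042). Krt77, a suprabasal keratin, fell by 5.90 on the log2 scale. Krt1 (0.39, SE 0.15, adjusted p = 0.110) and Krt10 (0.070, SE 0.15, adjusted p = 0.798) did not pass, nor did Krt17 (-0.043, SE 0.15, adjusted p = 0.877). Krt1 passed in DESeq2 (adjusted p = 0.0376) and in no other alternative, and Krt10 and Krt17 each changed sign when certain single libraries were left out, and Flg and Krt16 were not analysed here.

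Enzymes that crosslink the envelope proteins or build its lipid layer were split as well. Of 17 tested, edgeR called 2 higher and 4 lower (6.3% and 6.74% of all tested genes), with a median log2 fold change of 0.23. Tgm3, a transglutaminase that crosslinks small proline-rich proteins, measured 28.0, 31.5, 22.0 and 33.1 CPM in controls and 67.7, 59.8 and 90.9 CPM in UVB a to c (1.35, SE 0.17, edgeR adjusted p = 0.0048). Tgm1, the membrane-bound transglutaminase of keratinocytes, was the other riser (0.62, SE 0.15, adjusted p = 0.0318), and it lost its call in 7 of 16 alternatives. The count of risers was 1 without control a, b, c or d or without UVB c. Those with the smallest p among the lower genes were Lipm, a lipase of differentiating keratinocytes (-0.74, SE 0.067), Tgm2 (-0.60, SE 0.10) and the lipoxygenase gene Alox12e (-2.02, SE 0.32).

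The S100 genes of the complex encode small calcium-binding proteins. Of 9 tested, edgeR called 3 higher and 2 lower (6.3% and 6.74% of all tested genes), with a median of 0.14. S100a6 (0.68, SE 0.12), S100a4 (0.67, SE 0.14) and S100a9 (0.46, SE 0.12) rose, and S100a3 (-1.13, SE 0.20) and S100a1 (-1.54, SE 0.36) fell. S100a9 lost its call in 7 of 16 alternatives (0.30 without UVB b) and S100a1 in 5. Without control c only 1 was called higher, and without control b, c or d or UVB b only 1 lower.

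The list of transcription factor genes of keratinocyte differentiation and AP-1 had 36 tested. Among them edgeR called 2 higher and 5 lower (6.3% and 6.74% of all tested genes), with a median of -0.076. The AP-1 gene Fosl1 measured 8.97 ± 1.13 CPM in controls (SD, n = 4) and 16.04 ± 3.81 CPM after UVB (SD, n = 3; log2 fold change 0.84, SE 0.17, adjusted p = 0.0159), from counts that were not whole in any library, and it lost its call without UVB c (0.0517). Fos (0.51, SE 0.70, adjusted p = 0.677), Fosb (0.89, SE 0.74, 0.465), Jun (-0.24, SE 0.13, 0.238) and Jund (-0.27, SE 0.094, 0.0927) did not pass in this edgeR fit. Nor did Klf4 (-0.011, SE 0.13, adjusted p = 0.969), whose sign changed without control d (0.026) or UVB b (0.16), or Grhl3 (0.43, SE 0.14, adjusted p = 0.0781), which passed without UVB b (0.0165). Among the lower genes, Nfe2l3 (-0.76, SE 0.15), Elf3 (-0.52, SE 0.12) and Ahr (-0.41, SE 0.10) had the smallest p, and the latter pair each lost the call in 6 of 16 alternatives. The count of factors called higher was 5 without UVB b, and of those called lower 3 without control a and 1 without control b, c or d or UVB b.

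Genes with the most similar pattern were sought among 11965 genes with a mean count of at least 50, by the root-mean-square difference of centred log2 CPM over the 7 libraries. Nearest to Sprr1b were Cd163, a macrophage scavenger receptor (0.449), Cpxm1 (0.490), Prg4 (0.491), LOC102555453 (0.638) and Timp1 (0.681). Nearest to Lce1m were Serpina12 (0.322), Alox12e (0.382), Skint8 (0.419), Mat1a (0.480) and Cyb5r2 (0.483), of which Serpina12 did not pass the edgeR test (log2 fold change -1.39, SE 0.59, adjusted p = 0.163). Among the nearest to Sprr1a, the most abundant member, were Gjb2, a connexin gene (0.0655), Atp13a4 (0.0780), AABR07005597.1 (0.0906) and Myo5a (0.117). Counts of Gjb2, Prg4 and LOC102555453 were not whole in any library.

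Among the members themselves, the closest pair by this measure was Lce1f with Lce6a (0.206), followed by Lce1l with Lce6a (0.274), Lce1l with Lce1f (0.381) and Sprr1a with Sprr3 (0.391). Sprr1b was 1.22 from Sprr3 and 1.57 from Sprr1a, while Lce1m was 0.722 from Lce1l, 0.904 from Lce6a and 0.959 from Lce1f. Centring keeps the difference between groups, so distances by this measure reflect the sizes of the fold changes as well as patterns within groups. They are not results separate from the fold changes, and those of Sprr1b and Lce1m were known beforehand.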

How the data were processed

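The submitters' processing notes name FastQC, Trimmomatic, DRAGEN, Picard and build rn7, without version or role; annotation, counter and strand handling are not given in the sources used here. The authors deposited expected counts per gene (12.5% of values not whole) and TPM values, which summed to 82.0% to 84.1% of the full TPM scale. Unquoted commas shift cells in many rows, and each row's last 7 cells were taken as its values. In each table, 5 rows lacked a value and were left out.

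Expected counts were rounded and tested over all genes with edgeR 4.0.16 (R 4.3.3; quasi-likelihood, robust, TMM, filterByExpr; two-sided, Benjamini-Hochberg adjusted, threshold 0.05). A standard error is the log2 fold change over the root of F. CPM use TMM factors, and the pattern search uses log2 CPM with a prior count of 2. Fits were tested on simulated data. Alternatives used DESeq2 1.42.0, limma 3.58.1 (voom, or trend on log2(TPM + 1) or log2(TPM + 0.1) keeping genes of mean TPM 1 or more, or unfiltered), other scalings and filters, and each library left out.

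Columns name the group but no replicate number. Of 202 listed symbols, 170 were found. Members, lists and tests were chosen with earlier results of these data known. Named genes were all members, 13 fixed genes, the 3 called genes of smallest p per list and direction, and the 5 nearest patterns; Scd, Awat1, Awat2, Plin2, Krt2, Krt80, Calml3, Epgn, Krt75, the AP-1 genes other than Fosl1, Sprr2d and the chromosomal neighbours were added after their values were seen. Some genes that this rule names are not reported here.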

Additional observations from a re-analysis of the deposited data

Results flagged for a closer look

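In 3 of the 51 values compared within the 4 controls, 1 library lay far from the others; chance gives this in about 1 in 20 such groups. For Sprr1a, control d held 519 CPM and the other 3 controls 376 to 391 CPM, so the gap to the nearest was 0.895 of the whole range. Without control d the log2 fold change of Sprr1a was 0.90 (edgeR adjusted p = 0.0192). For Lce1m, control b held 13.6 CPM and the others 5.42 to 5.77 CPM (gap 0.957), and without control b the gene did not pass (-1.54, edgeR adjusted p = 0.0656). For Krt77, control b held 85.0 CPM and the others 27.2 to 32.0 CPM (gap 0.917), and this gene passed in each of the 16 alternative fits.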

How the results depend on the processing

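No paired analysis was possible because the labels' replicate numbers could not be tied to single columns. The count of members higher in UVB was 3 in each alternative test, scaling and filter. It was 4 at a mean count of at least 5 without the low-count filter, an alternative chosen after seeing the data. That alternative takes in Sprr2d (2.43, edgeR adjusted p = 0.0399), whose mean count rests mostly on UVB b and c (26.8 and 20.7 counts). Controls had 1 to 7 counts of Sprr2d, and UVB a, with 5, lay within their range. Sprr2d was not called in the limma fits to TPM (adjusted p = 0.0606 to 0.0696). By edgeR it was called without UVB a (adjusted p = 0.0263). The count of 4 is thus only a description. The count of members lower was 1 with library size alone and without the low-count filter, where Lce1m lost its call, and thus also in the alternative at a mean count of at least 5, which uses the same unfiltered fit. Lce1m lost it with library size alone (-1.97, adjusted p = 0.0510), without the filter (-1.97, 0.0705), and in limma on log2(TPM + 1) (-1.80, 0.0515; without filter 0.0548) and log2(TPM + 0.1) (-2.05, 0.0523). Lce6a passed in limma on log2(TPM + 1) with or without filter (-0.86) and log2(TPM + 0.1) (-0.91). Other moved counts were 5 envelope proteins lower (limma-voom), 4 crosslinking enzymes higher (DESeq2) or 1 (log2(TPM + 1), no filter), 1 S100 gene lower (no filter), 6 factors higher and 8 lower (DESeq2) and 1 lower (log2(TPM + 1), no filter). The cause was not tested.

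Leaving out one library gave 2 to 3 members higher and 1 lower. It gave log2 fold changes of 0.59 to 0.93 for Sprr1a and -2.34 to -1.54 for Lce1m, counts of 2 to 4 envelope proteins higher and 2 to 4 lower, 1 to 3 crosslinking enzymes higher, 1 to 3 S100 genes higher and 1 to 2 lower, and 2 to 5 factors higher and 1 to 5 lower. Signs changed, without a call, for Lor (-0.49 to 0.042, positive without UVB b), Klf4 (-0.11 to 0.16, positive without control d, 0.026, or UVB b), Krt10 (-0.10 to 0.21, negative without UVB c) and Krt17 (-0.23 to 0.10, positive without control d, 0.012, or UVB b). No member changed sign. Depth limits Lce6a and Sprr2d most, which rest on few counts.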
